A study of Mus musculus with 6 samples.

Results

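The genes described here are 10 markers of B cells and of plasma cells, chosen by name from the 18491 genes of the deposited table, and all 10 were found. Early B genes make up 6 of them (Ebf1, Pax5, Cd79a, Cd79b, Vpreb1, Igll1) and plasma cell genes 4 (Xbp1, Irf4, Prdm1, Mzb1). The study sequenced RNA of mouse bone marrow cells that a fluorescence sorter had selected as haematopoietic stem and progenitor cells, in 3 wild-type and 3 Robo1 knockout libraries. Robo1 encodes a receptor for the Slit guidance proteins, and the series' design text describes its deletion by the Mx1-cre transgene. That transgene is switched on by interferon, here through 3 doses of poly(I:C), a double-stranded RNA mimic of viral infection, and the cells were sorted 8 months after the injections. Mx1-cre acts in many interferon-responsive cells besides stem cells. The labels do not say whether the wild-type mice carried Mx1-cre or a floxed allele, and they give no age or strain. The titles and treatment fields describe the same libraries as an shRNA control and knockdowns, with the treatment field naming ROBO1, ROBO2 and ROBO3 in turn for the knockout libraries. Groups follow the descriptions. Whether each library is its own animal is not said, and the spread behind each p-value may then be technical.

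B cells arise in bone marrow from lymphoid progenitors. EBF1 and then PAX5, both transcription factors, commit the cells to the B lineage and switch on the genes of the pre-B cell receptor. That receptor joins an immunoglobulin heavy chain to a surrogate light chain made of VPREB and IGLL1 (lambda5), and signals through CD79A and CD79B. When a mature B cell becomes an antibody-secreting plasma cell, IRF4 and PRDM1 (BLIMP-1) shut the B cell programme down. XBP1 then enlarges the endoplasmic reticulum, and MZB1, a chaperone cofactor of that compartment, helps to assemble antibody. Several of these genes also work outside the B lineage: XBP1 serves in other secretory cells, including mouse eosinophil precursors, and MZB1 and XBP1 are made in plasmacytoid dendritic cells.

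Library totals ran from 44578916 to 58106099 counts in wild-type libraries and from 42235077 to 57058267 in knockout. The top 100 genes by count held 42.9 ± 0.595% of counts in wild type, against 60.3 ± 0.583% in knockout (mean ± SD, n = 3 each). Levels are therefore given as CPM (counts scaled to the size of the library) with TMM factors, a scaling that sets aside the most extreme genes when libraries are compared. With TMM the median gene of the 15474 tested had a log2 fold change of -0.09, and with total counts as the only scaling it had -1.22, a shift of -1.13. The transcript of Robo1 was not analysed here.

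The sorted cells held transcripts of stem and progenitor cells, with Cd34 at 106 ± 4.54 CPM in wild type, against 102 ± 0.483 CPM in knockout. Over 8 markers that define such cells, the summed level ran from 157 to 163 CPM in wild-type libraries. In knockout it ran from 163 to 170 CPM, and most of it came from Cd34 in both groups. Of the 8 markers, 1 rose, 2 fell and 5 did not pass with TMM, at an edgeR adjusted p under 0.05. With total counts 0 rose and 7 fell. Over all genes tested TMM called 17.2% higher and 14.4% lower, and total counts 4.23% higher and 70.7% lower. Markers that define B cells were present unevenly. Among 6 such genes, those below 1 CPM in every library included Ms4a1 (CD20) and Pax5. Summed over the 6 genes, the level ran from 92.3 to 112 CPM in wild-type libraries and from 73.8 to 82.3 CPM in knockout, most of it from Cd79b. Of 7 markers that define plasma cells, Prdm1 and Irf4 stayed below 1 CPM in every library. Sdc1 (CD138, a plasma cell surface protein) stood at 1.88 ± 0.616 CPM in wild type, against 1.56 ± 0.602 CPM in knockout, whereas Jchain, which links antibody units, ran from 598 to 1117 CPM over the 6 libraries. In bulk RNA, fewer cells of a type and less RNA per cell cannot be told apart.

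Most early B genes were lower in knockout, and among plasma cell genes Xbp1 alone was. Of the 6 early B members, 5 fell, 0 rose and Pax5 did not pass, at an adjusted p under 0.05 in edgeR's quasi-likelihood test. Of the 4 plasma cell members, Xbp1 fell and Irf4, Prdm1 and Mzb1 did not pass. Over all genes tested 14.4% were called lower and 17.2% higher. In each of the 6 members that fell, every knockout library lay below every wild-type library, as was so for 24.4% of all genes tested. All 10 members passed the filter on low counts, but only 6 reached 1 CPM in at least 3 libraries. Without 1 library the calls among the early B members were fewer: 1 without wild-type replicate 1 (Ebf1), 2 without wild-type replicate 2 (Cd79a and Igll1) and 1 without wild-type replicate 3 (Cd79b). Without knockout replicate 1, 2 or 3 the early B calls numbered 2, 1 and 4. Xbp1 was called in every one of these fits.

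**Figure D1:**
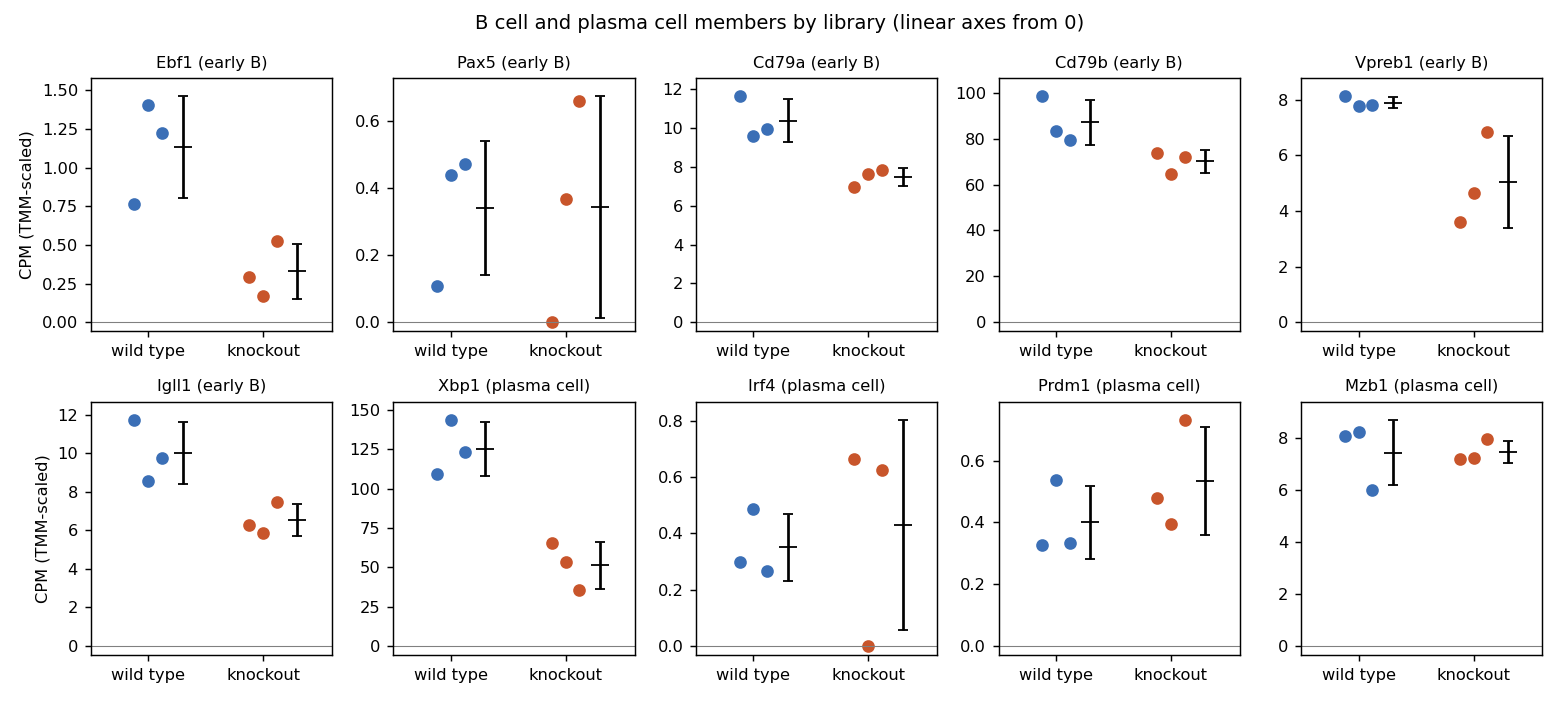
CPM (TMM-scaled, linear axes from 0) of each member in the 3 wild-type (blue) and 3 knockout (orange) libraries, with the mean and SD of each group as black bars beside the points. Ebf1, Cd79a, Cd79b, Vpreb1, Igll1 and Xbp1 do not overlap between the groups, whereas Pax5, Irf4, Prdm1 and Mzb1 do.

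Ebf1 and Pax5 are the transcription factors of B lineage commitment. Ebf1 (chromosome 11, 44617317 to 45008091, plus strand, GRCm38) had 49, 115 and 106 counts in wild type, against 11, 6 and 15 in knockout, which is 0.765, 1.40 and 1.22 CPM against 0.292, 0.170 and 0.522 CPM. Every knockout library stood below the lowest wild-type library, although each held few reads. The log2 fold change was -1.80 (SE 0.51, edgeR adjusted p = 0.0255), with a 95% interval from -2.97 to -0.64. Among the 10 members this was the largest change in size, and also the one with the largest SE of the 6 that passed. Without wild-type replicate 2 or 3 or knockout replicate 1 or 2 the adjusted p of Ebf1 ran from 0.0631 to 0.12.

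Pax5 (chromosome 4, 44524757 to 44710487, minus strand) had 7, 36 and 41 counts in wild type, against 0, 13 and 19 in knockout. The TMM-scaled levels overlapped, at 0.109, 0.440 and 0.473 CPM against 0, 0.367 and 0.662 CPM, with knockout replicate 3 the highest of all. A count of 0 in knockout replicate 1 allows up to 0.0797 CPM, from 3 counts in that library, counting error only. The log2 fold change was -0.02 (SE 1.11, edgeR adjusted p = 0.992) and its 95% interval, from -2.52 to 2.48, takes in a change as large as that of Ebf1. The sign turned with DESeq2 size factors, in DESeq2 and once exon length and GC content were corrected for. Of its annotated exons, 761 bases also belong to Gm12462 or 5730488B01Rik on the opposite strand, and no source used here says whether counting was by strand.

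Cd79a and Cd79b encode the signalling chains of the B cell receptor. Cd79b (chromosome 11, 106311341 to 106314762, minus strand) stood at 98.4, 83.4 and 79.6 CPM in wild type, against 73.8, 64.5 and 72.2 CPM in knockout. The groups lay close together without overlapping. Cd79b fell by 0.31 on the log2 scale (SE 0.10, edgeR adjusted p = 0.0353), to 0.806 times its level in wild type, the smallest change among the members that passed. With DESeq2 size factors within edgeR, Cd79b did not pass (adjusted p = 0.0590).

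Cd79a (chromosome 7, 24897381 to 24902197, plus strand) stood at 11.6, 9.58 and 9.95 CPM in wild type, against 6.96, 7.63 and 7.83 CPM in knockout. Again each knockout library was below each wild-type library. Cd79a fell by 0.48 on the log2 scale (SE 0.13, edgeR adjusted p = 0.0183). The chains were not present in equal measure: per gene length, Cd79b stood 9.32 times above Cd79a in wild type by the deposited FPKM. Counts of Cd79a per 100 counts of Cd79b, a ratio that no library scaling can change, were 11.8, 11.5 and 12.5 in wild type, against 9.42, 11.8 and 10.8 in knockout. Wild-type replicate 2 lay below knockout replicate 2, so the groups overlapped (exact permutation test, two-sided, p = 0.2, adjusted p = 0.24 over 6 such ratios). With 3 against 3 libraries the smallest p of this test is 0.1, so none of the 6 ratios could pass.

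Vpreb1 and Igll1 encode the surrogate light chain and are neighbours, with 4417 bases between them on chromosome 16 (Vpreb1 16868403 to 16870843, Igll1 16860671 to 16863985, both on the minus strand). Vpreb1 stood at 8.12, 7.79 and 7.81 CPM in wild type, against 3.61, 4.63 and 6.86 CPM in knockout. The wild-type libraries were nearly equal, and the knockout libraries were lower and spread more widely, with replicate 3 the nearest to wild type. Its log2 fold change was -0.66 (SE 0.21, edgeR adjusted p = 0.0434, and 0.0532 with DESeq2 size factors within edgeR). Leaving out any library other than knockout replicate 3 put Vpreb1 above the threshold (adjusted p from 0.107 to 0.125), and without knockout replicate 3 it was called at adjusted p = 0.00322.

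Igll1 stood at 11.7, 8.57 and 9.73 CPM in wild type, against 6.27, 5.85 and 7.45 CPM in knockout, again without overlap. Igll1 fell by 0.62 on the log2 scale (SE 0.16, edgeR adjusted p = 0.0152). Per 100 counts of Igll1 there were 69.3, 90.9 and 80.2 counts of Vpreb1 in wild type, against 57.6, 79.2 and 92.1 in knockout, so that the balance between the partners overlapped between the groups (exact permutation test, two-sided, p = 0.8, adjusted p = 0.8). Vpreb2, a near-copy of Vpreb1 that can share its reads, stood at 0.841 ± 0.189 CPM in wild type, against 0.377 ± 0.162 CPM in knockout, and did not pass (edgeR adjusted p = 0.118), although it was called lower with exon length and GC content corrected for (-1.74, adjusted p = 0.0328). Vpreb1 also shares 108 exon bases with Top3b on the other strand.

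The promoters of 3 members that fell side by side, Cd79a, Vpreb1 and Igll1, are shown because EBF1 and the E proteins are known to act on these genes in early B cells. The sequences are from RefSeq (GRCm38.p6), written 5′ to 3′ along the gene and ending before the first base of its coding transcripts, and capitals mark matches to CTCAAGGG, the letters at the EBF1 site of the Cd79a promoter, or to the E-box CANCTG on either strand. The windows are chr7:24897247-24897380 (plus strand), chr16:16869256-16869505 (minus strand) and chr16:16863986-16864235 (minus strand).
Cd79a: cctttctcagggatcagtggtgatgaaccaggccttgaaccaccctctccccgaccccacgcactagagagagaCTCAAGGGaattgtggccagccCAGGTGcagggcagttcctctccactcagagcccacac
Vpreb1: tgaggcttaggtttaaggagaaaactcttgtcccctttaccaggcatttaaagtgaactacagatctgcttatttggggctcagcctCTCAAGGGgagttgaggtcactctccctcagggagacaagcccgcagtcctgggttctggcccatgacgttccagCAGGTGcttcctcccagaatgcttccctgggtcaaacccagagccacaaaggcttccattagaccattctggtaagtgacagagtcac
Igll1: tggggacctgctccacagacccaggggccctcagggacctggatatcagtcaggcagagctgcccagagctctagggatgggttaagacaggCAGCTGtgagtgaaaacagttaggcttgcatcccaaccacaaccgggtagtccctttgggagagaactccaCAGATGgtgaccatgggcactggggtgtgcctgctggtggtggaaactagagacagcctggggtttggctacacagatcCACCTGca

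Cd79a and Vpreb1 each hold 1 match to CTCAAGGG and 1 E-box, and Igll1 holds 3 E-boxes and no match to CTCAAGGG. The match in Cd79a was fixed in advance, because the letters are those of its own promoter. Among 32851 RefSeq windows of 250 bases before a start, 1.01% hold CTCAAGGG and 44.8% hold CANCTG, on either strand. Of the 10 members 8 had such a window, and Cd79b, which fell, and Mzb1 had none. The windows of Ebf1, Pax5, Xbp1, Irf4 and Prdm1 held no match to CTCAAGGG, and those of Xbp1 and Prdm1 each held 1 E-box. The letters were chosen after the sequences were seen, and a match describes letters and not binding.

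**Figure D2:**
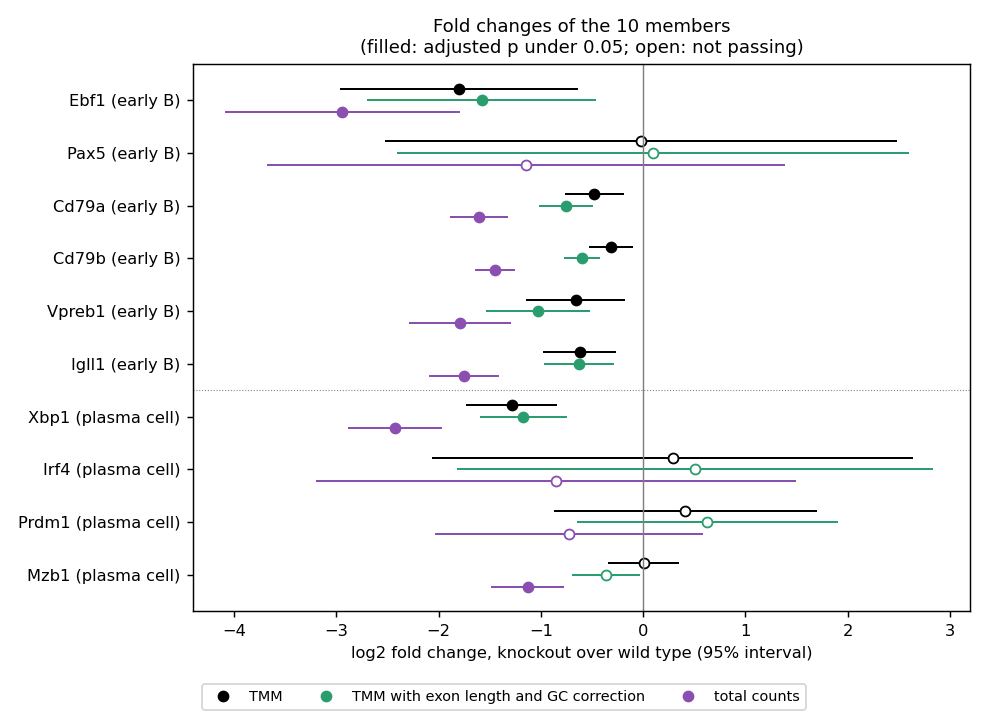
Log2 fold change of each member, knockout over wild type, with its 95% interval, under TMM scaling (black), TMM with a correction for exon length and GC content (green) and total counts (purple). The 5 early B genes that fell and Xbp1 lie left of 0 with all 3, whereas Mzb1 moves from 0.01 with TMM to -1.13 with total counts. With total counts the median of all genes tested is itself at -1.22, so lying left of 0 there sets no gene apart.

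Xbp1, the endoplasmic reticulum stress factor of secretory cells, changed more than any other abundant member. Xbp1 (chromosome 11, 5520659 to 5525893, plus strand) had 6980, 11752 and 10664 counts in wild type, against 2453, 1892 and 1015 in knockout, which is 109, 143 and 123 CPM against 65.1, 53.5 and 35.3 CPM. The groups were well apart, with knockout replicate 3 the lowest of all. Its log2 fold change was -1.29 (SE 0.20, edgeR adjusted p = 9.33e-04), 0.410 times the wild-type level. The fall was called under all 13 alternatives run, with log2 fold changes from -2.43 to -1.08. The authors' deposited table gives Xbp1 a log2 fold change of -1.28 (SE 0.26) and classes it, like Ebf1 at -1.80, as down. It classes the other 8 members as stable, although its adjusted p is under 0.05 for 4 of them, at 0.0391 for Cd79a, 0.0164 for Cd79b, 0.0335 for Vpreb1 and 0.0125 for Igll1. The spliced and unspliced forms of Xbp1 mRNA cannot be separated in counts per gene.

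Irf4 and Prdm1, the transcription factors that direct plasma cell formation, were close to the detection limit. Irf4 (chromosome 13, 30749226 to 30766976, plus strand) had 19, 40 and 23 counts in wild type, against 25, 0 and 18 in knockout. Knockout replicate 2, at 0, stood apart from the other libraries of its group, and its 0 allows up to 0.0848 CPM. The log2 fold change was 0.29 (SE 1.04, edgeR adjusted p = 0.865), with an interval from -2.06 to 2.64 and a sign that turned with total counts (-0.85). Prdm1 (chromosome 10, 44437177 to 44528501, minus strand) had 21, 44 and 29 counts in wild type, against 18, 14 and 21 in knockout. Its TMM-scaled levels overlapped, at 0.328, 0.537 and 0.335 CPM against 0.478, 0.396 and 0.731 CPM. The log2 fold change was 0.41 (SE 0.57, edgeR adjusted p = 0.64), with an interval from -0.88 to 1.70, and it was -0.72 with total counts. With TMM the interval of Irf4 takes in a fall as large as that of Xbp1, while the interval of Prdm1 ended short of it. Without knockout replicate 2 the log2 fold change of Irf4 was 0.88 (SE 0.61, edgeR adjusted p = 0.345).

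Mzb1 (chromosome 18, 35647267 to 35649367, minus strand) was the plasma cell member with the most even TMM-scaled level. It stood at 8.08, 8.20 and 5.97 CPM in wild type, against 7.17, 7.23 and 7.94 CPM in knockout. All 3 knockout libraries lay within the wild-type range. Its log2 fold change was 0.01 (SE 0.15, edgeR adjusted p = 0.984), with an interval from -0.34 to 0.35. With total counts it was -1.13 and called lower (adjusted p = 1.32e-04), close to the median gene at -1.22. With exon length and GC content corrected for, it was -0.36 and did not pass (adjusted p = 0.103). GENCODE gives 695 of its exon bases to SPATA24 as well, on the same strand, so reads there may have been left out or shared.

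The members differed widely in level. By the deposited FPKM, which allow for gene length, the wild-type means were 81.8 ± 6.53 for Cd79b, 77.6 ± 12.7 for Xbp1, 14.0 ± 1.54 for Igll1 and 13.5 ± 0.807 for Vpreb1. Mzb1 followed at 10.1 ± 1.70 and Cd79a at 8.77 ± 0.549 (n = 3 each). Neighbours in that order (Cd79b and Xbp1, Igll1 and Vpreb1, Mzb1 and Cd79a) did not differ beyond their spread in these values. Far below came Ebf1 at 0.384 ± 0.186, Prdm1 at 0.0923 ± 0.0314, Irf4 at 0.0896 ± 0.0347 and Pax5 at 0.0525 ± 0.0334. Wild-type Cd79b thus stood 1559 times above Pax5, the factor that helps to drive it in B cells, and Xbp1 stood 841 times above Prdm1. In rank, Cd79b and Xbp1 lay above 94.1% and 93.9% of all deposited genes in wild type, whereas Pax5 lay above 7.65%. The order depends on the length assumed for each gene. An FPKM computed from the counts and all annotated exon bases put wild-type Cd79b at 90.0 ± 8.05 and Xbp1 at 57.2 ± 9.42, and Cd79a (10.5 ± 0.810) above Vpreb1 (9.76 ± 0.0802), Mzb1 (9.04 ± 1.52) and Igll1 (6.83 ± 0.890). On that scale Xbp1 stood 537 times above Prdm1 and Cd79b 1564 times above Pax5. The deposited value ran from 1.16 to 2.42 times the computed one for Ebf1, so the deposited FPKM of Ebf1 did not follow its counts by 1 factor.

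**Figure D3:**
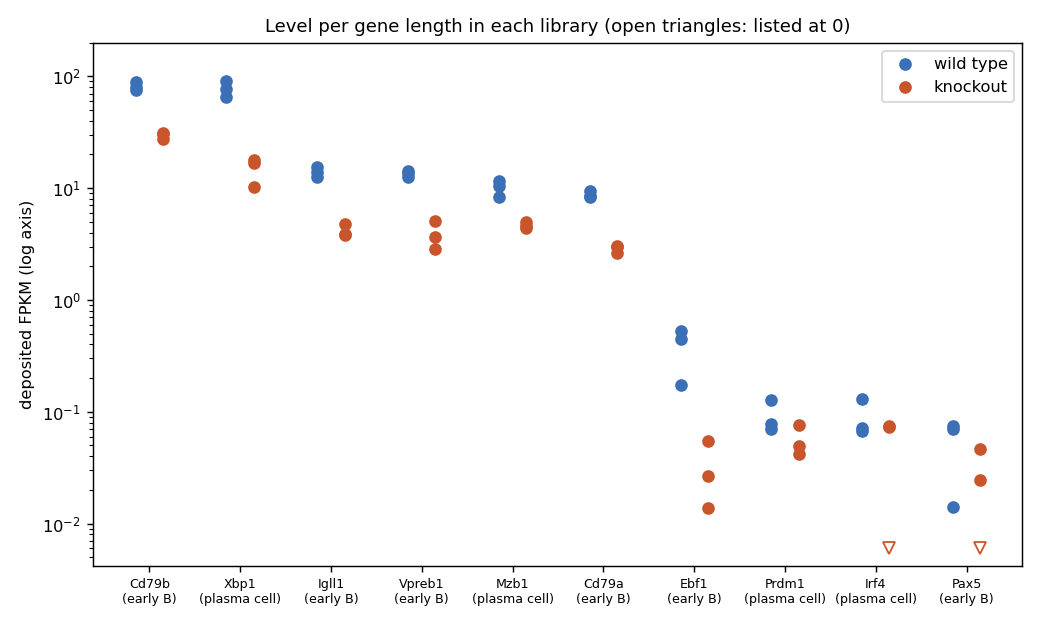
Deposited FPKM (log axis) of the 10 members in each wild-type (blue) and knockout (orange) library, ordered by the wild-type mean, with open triangles at the bottom for libraries listed at 0. The values fall into a group of 6 genes above 2 FPKM in every library and a group of 4 genes below 1 FPKM, each with early B and plasma cell genes in it.

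Set against each other, the early B and plasma cell genes gave no single contrast. With TMM the median log2 fold change was -0.55 over the 6 early B members and 0.15 over the 4 plasma cell members, against -0.09 over all genes tested, so the medians differed by 0.69. With total counts the medians were -1.68 and -0.99, against -1.22 over all genes, so the sign for the plasma cell members rests on the scaling. The mean of the plasma cell members was -0.15, opposite in sign to their median, because Xbp1 fell and the other 3 did not pass. Limited to the 6 members that reached 1 CPM in at least 3 libraries, the plasma minus early B difference turned to -0.09.

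Ratios within a library, which do not depend on scaling, split the plasma cell genes in the same way. The log2 ratio of summed FPKM of the plasma cell members over the early B members was -0.74, -0.18 and -0.40 in wild type, against -0.85, -0.84 and -1.52 in knockout, lower in every knockout library. Xbp1 made up 88.3% of the plasma cell sum in wild type, and Cd79b 69.1% of the early B sum. Without Xbp1 the log2 ratio was -3.57, -3.28 and -3.75 in wild type, against -3.16, -3.05 and -3.10 in knockout, higher in every knockout library. That sum is nearly all Mzb1, with a wild-type mean FPKM of 10.1 against 0.0923 for Prdm1 and 0.0896 for Irf4. Counts of Mzb1 per 100 counts of Cd79b were 8.20, 9.84 and 7.50 in wild type, against 9.71, 11.2 and 11.0 in knockout, where knockout replicate 1 fell just inside the wild-type range (exact permutation test, two-sided, p = 0.2, adjusted p = 0.24). Counts of Xbp1 per 100 counts of Mzb1 were 1350, 1749 and 2063 in wild type, against 909, 739 and 445 in knockout, without overlap (p = 0.1 in the exact permutation test, the smallest that 3 against 3 libraries allow, adjusted p = 0.24).

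Few other genes of the early B programme passed the test with TMM. Of 24 listed genes, 23 were measured and tested, of which 2 rose, 2 fell and 19 did not pass, with a median log2 fold change of -0.21. In 18 of the 23 the log2 fold change was negative, as in 8686 of all 15474 genes tested. Over all genes tested 17.2% were called higher and 14.4% lower. Ly6d, a marker of B-biased lymphoid progenitors, fell by 0.70 (SE 0.12, edgeR adjusted p = 0.00203) and Spi1, which encodes the myeloid and lymphoid factor PU.1, fell by 0.76 (SE 0.15). Cd24a (1.41, SE 0.10), a surface marker of early B cells also found on many other blood cells, and Cd93 (0.55, SE 0.07), a marker of immature B cells and of myeloid progenitors, rose. Cd93 was called in the other direction with total counts (-0.59), and Cd24a stayed higher (0.27). The recombination gene Rag2, the lymphoid receptor gene Il7r and Dntt, which encodes terminal transferase, did not pass, at log2 fold changes of -0.67, -0.03 and -0.02. With exon length and GC content corrected for, 3 rose and 4 fell, the additional falls being Vpreb2 and Vpreb3 (-1.02, edgeR adjusted p = 0.0035). With total counts 1 gene of the list was called higher and 19 lower, where 70.7% of all genes tested were called lower and 4.23% higher.

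Genes of B cell receptor signalling and of mature B cells gave 1 higher, 2 lower and 14 not passing of 17 tested, from 22 listed and 18 measured (median log2 fold change -0.05). The shares over all genes tested were 17.2% higher and 14.4% lower. Plcg2, a phospholipase below the receptor, fell by 0.51 (SE 0.11, edgeR adjusted p = 0.00802) and Cd72, an inhibitory coreceptor of B cells, fell by 0.42 (SE 0.13, adjusted p = 0.0366). Cd37, a tetraspanin of leukocytes, rose by 0.40 (SE 0.07), but was called lower with total counts (-0.74). Cd72 no longer passed with exon length and GC content corrected for (-0.29, edgeR adjusted p = 0.150). The number called lower was 1 in DESeq2, and ran from 1 to 3 when single libraries were left out.

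Other plasma cell genes were divided, with 5 higher, 5 lower and 9 not passing of 19 (median -0.21), beside 17.2% higher and 14.4% lower over all genes tested. Jchain rose from 641 ± 37.8 to 993 ± 108 CPM (edgeR adjusted p = 4.14e-04, log2 fold change 0.63, SE 0.08). Sec11c, a signal peptidase subunit (0.48, SE 0.07), Ssr4, a translocon-associated subunit (0.42, SE 0.06), and Derl3, of the degradation of misfolded proteins (0.93, SE 0.21), rose. Txndc5, a disulphide isomerase, fell by 0.73 (SE 0.17) and Edem1, of the same degradation pathway as Derl3, fell by 0.61 (SE 0.16). With total counts 0 of the 19 were called higher and 16 lower, where 4.23% of all genes tested were called higher and 70.7% lower. Jchain, Sec11c and Ssr4 were then called lower (-0.50, -0.65 and -0.71), and Derl3 stood at -0.20 without passing. With exon length and GC content corrected for, the number called lower went from 5 to 2, and Edem1 no longer passed (-0.40, edgeR adjusted p = 0.0755). Without single libraries the number called lower ran from 0 to 4.

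**Figure D4:**
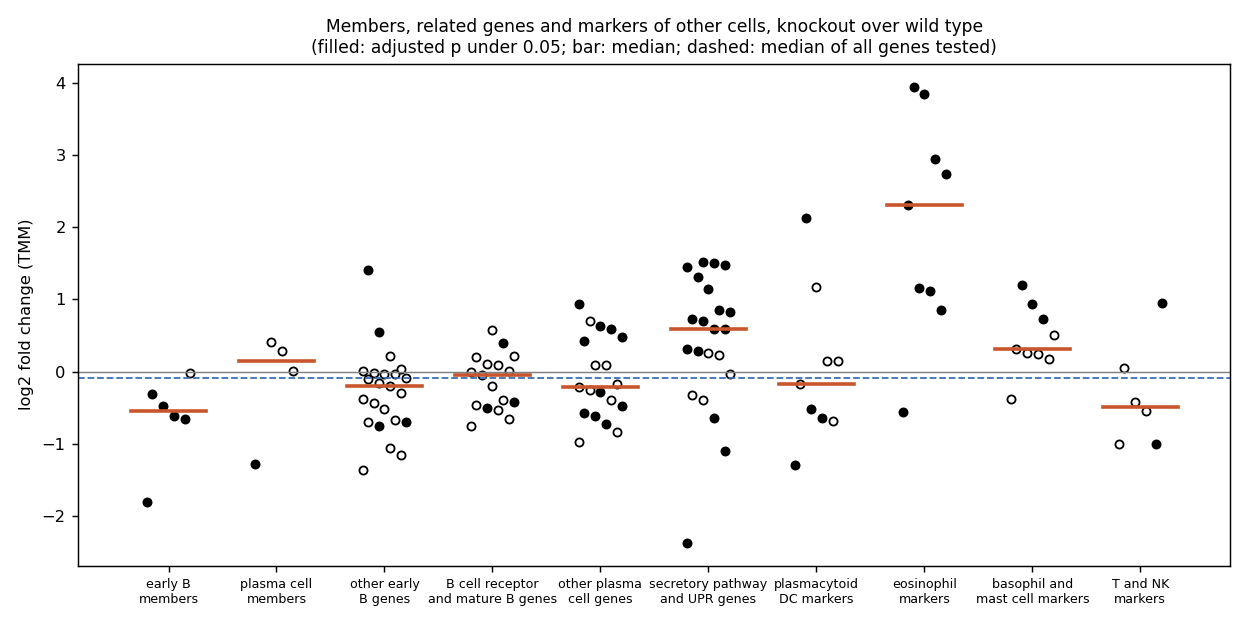
Log2 fold change (TMM) of each tested gene in the 2 member groups, in 4 lists of related genes and in 4 lists of markers of other cells, with filled points at an adjusted p under 0.05, orange bars for list medians and a dashed line for the median of all genes tested (-0.09). The early B members sit mostly below the dashed line, the secretory pathway genes mostly above it with Dnajb11 far below, and the eosinophil markers at a median of 2.30.

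Because Xbp1 acts on the secretory pathway, 22 genes of that pathway and of the unfolded protein response were described beside it. With TMM 14 rose, 3 fell and 5 did not pass, with a median log2 fold change of 0.59, where 17.2% of all genes tested rose and 14.4% fell. Pdia6, a disulphide isomerase (log2 1.51, SE 0.05), and the chaperone genes Hspa5, or BiP (1.48, SE 0.05), and Hsp90b1, or GRP94 (1.45, SE 0.06), rose, as did the translocon genes Sec61b (1.31, SE 0.08) and Sec61g (1.14, SE 0.08). Of these, Pdia6, Hspa5, Hsp90b1 and Sec61b were also called higher with total counts (0.38, 0.34, 0.31 and 0.18), while Sec61g was not (0.01). Over the list, total counts gave 5 higher and 16 lower, beside 4.23% higher and 70.7% lower over all genes tested.

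The 3 secretory genes that fell were Dnajb11, Sdf2l1 and Dnajb9, of which Sdf2l1 and Dnajb9 are named because they fell and not by the rule. Dnajb11 and Dnajb9 encode co-chaperones of BiP, and Sdf2l1 encodes a partner of Dnajb11. Dnajb11 stood at 42.2, 58.2 and 50.0 CPM in wild type, against 11.4, 10.3 and 7.17 CPM in knockout, and fell by 2.37 on the log2 scale (SE 0.18, edgeR adjusted p = 8.48e-06). Sdf2l1 stood at 192, 218 and 196 CPM against 127, 84.8 and 70.0 CPM, and fell by 1.11 (SE 0.18). Dnajb9 stood at 18.2, 23.2 and 24.5 CPM against 18.4, 12.9 and 10.8 CPM, and fell by 0.64 (SE 0.19) with overlapping groups, and no longer passed with exon length and GC content corrected for (-0.47, edgeR adjusted p = 0.0936). In all 3 genes, as in Xbp1, knockout replicate 3 was the lowest library. This was not particular to them: it held for Spi1, Irf8, Irf7, Plcg2 and Txndc5, which also fell, but not for Edem1, Cd72 or Tcf4. Ern1, which encodes the sensor IRE1 that splices Xbp1 mRNA and is also named after its value was seen, rose from 4.17 ± 0.101 to 11.8 ± 1.40 CPM (log2 1.51, SE 0.13; 0.37 with total counts).

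**Figure D5:**
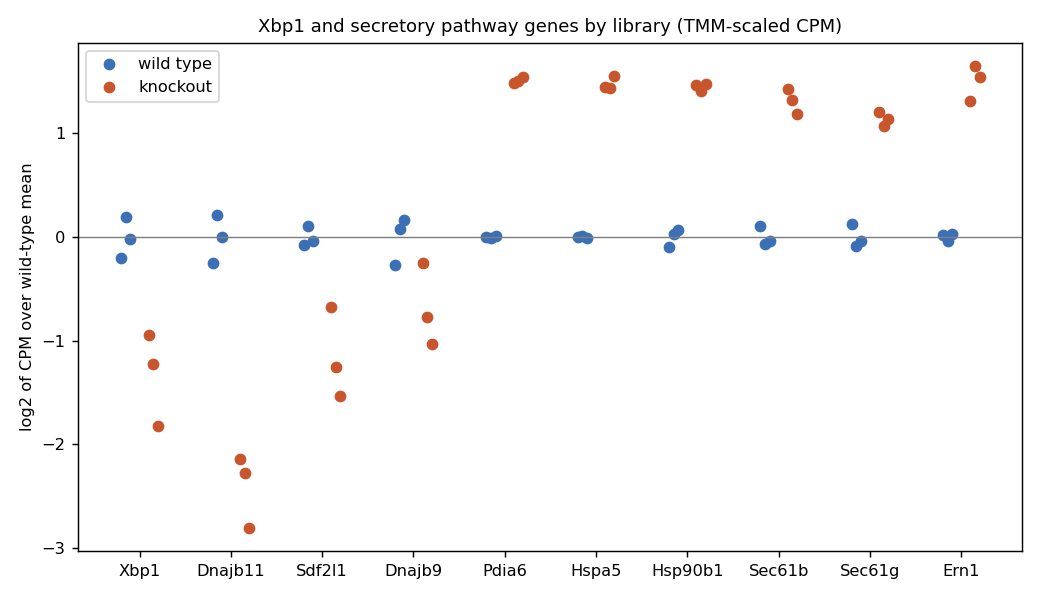
Log2 of TMM-scaled CPM over the wild-type mean for Xbp1 and 9 secretory pathway genes in each wild-type (blue) and knockout (orange) library. Xbp1, Dnajb11, Sdf2l1 and Dnajb9 lie below their wild-type means in all 3 knockout libraries, and the other 6 genes lie above theirs.

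Markers of other cells that use some of these genes moved as well, and their part in the values of the members was not tested. Of 10 eosinophil markers 9 were tested, with 8 higher and 1 lower. The summed level ran from 5756 to 6920 CPM in wild-type libraries and from 44557 to 50264 CPM in knockout. Most of that sum came from Prg2, at 5155 ± 595 CPM in wild type, against 39685 ± 2839 CPM in knockout. Ear1, an eosinophil ribonuclease gene that can share reads with its near-copy Ear2, rose by 3.84 on the log2 scale (SE 0.08), and Ear2 by 3.95 (SE 0.08). Ccr3, the eotaxin receptor gene of mature eosinophils, had under 1 CPM in every library. Of 9 basophil and mast cell markers 3 rose and 0 fell (summed level 2073 to 2384 CPM in wild type, 3677 to 4061 CPM in knockout), led by the protease gene Mcpt8 (log2 1.20, SE 0.06), although with total counts 0 rose and 7 fell. Over all genes tested TMM called 17.2% higher and 14.4% lower, and total counts 4.23% higher and 70.7% lower.

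Of 9 measured markers of plasmacytoid dendritic cells 1 rose, 3 fell and 5 did not pass, where 17.2% of all genes tested rose and 14.4% fell. Their summed level ran from 897 to 985 CPM in wild-type libraries and from 3012 to 3437 CPM in knockout, most of it from Ly6c2 (log2 2.12, SE 0.07), which monocytes also carry. Tcf4, the factor that specifies these cells, fell by 0.51 (SE 0.09), Irf8 fell by 0.64 (SE 0.15) and Irf7 by 1.30 (SE 0.28). With exon length and GC content corrected for, 2 rose and 4 fell, beside 18.4% higher and 11.3% lower over all genes tested. The call of Tcf4 was then lost (-0.13, edgeR adjusted p = 0.311). Cox6a2 (-1.29, edgeR adjusted p = 0.00568) and Bst2 (-0.67, edgeR adjusted p = 1.84e-04) were called lower in that setting. With total counts 1 rose and 6 fell, beside 4.23% higher and 70.7% lower over all genes tested. Siglech and Ccr9, surface markers of plasmacytoid dendritic cells, stayed below 1 CPM in all 6 libraries. Of 10 T and NK cell markers 6 were tested, with Nkg7 higher (but called lower with total counts, at -0.19), Lck lower and 4 not passing. Trac and Cd4 stayed below 1 CPM in all 6 libraries. The summed level of that list ran from 3371 to 3436 CPM in wild-type libraries and from 6328 to 6742 CPM in knockout, nearly all of it from Nkg7, a granule gene that myeloid cells also express (3380 ± 35.7 CPM in wild type).

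Transcripts of antibody genes were abundant, and per gene length Igkc, the kappa constant gene, stood at 25159 ± 886 deposited FPKM in wild type. It had 711192, 845603 and 962141 counts in wild type, against 1315912, 1219781 and 1038678 in knockout, and immunoglobulin genes together took 2.72 ± 0.0429% and 3.57 ± 0.0849% of counts. Igkc (log2 1.70 with TMM and 0.56 with total counts), Ighm (1.42 and 0.29) and Igha (1.40 and 0.26) rose under both scalings. The lambda constant gene Iglc1 fell under both, by 1.64 and 2.77. Ighd, made by mature naive B cells, had 5, 21 and 12 counts in wild type, against 0, 5 and 0 in knockout.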

How the data were processed

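The authors deposited 1 table that gives each gene's raw counts, its length-scaled values by library and their own DESeq2 comparison (log2 fold changes, p-values, mean levels as a signal and a test score). The length-scaled columns carry no unit; from the values, they are read as the authors' FPKM, since 98.5% to 99.0% of single-transcript genes came within 1% of 1 constant multiple of an FPKM computed from the counts. Tools listed in the submitters' processing notes are HISAT2 2.2.1, fastp 0.22.0, DESeq2 1.32.0 and featureCounts 2.0.1, with build mm10.

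Counts were tested with edgeR 4.0.16 (R 4.3.3), with TMM scaling, filterByExpr and the quasi-likelihood test. Benjamini-Hochberg adjustment ran over 15474 genes, with a threshold of 0.05. The same steps had first been tested on simulated data. The simulated libraries shared a mean profile in which few genes changed. They cannot show how TMM performs when composition differs as much as it did here. Ratios within libraries were tested by exact permutation. Alternatives were total counts, DESeq2 size factors, DESeq2 1.42.0, other filters, a replicate block, an exon length and GC correction, and leaving out each library. Exons are from GENCODE vM21. Members and lists were chosen with earlier results of these data known, and from each list up to 6 genes of lowest p among those called were named. Other list genes named were chosen after their values were seen. Robo1 and Robo2 were not analysed here. Values of 1 listed marker are not reported here.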

Additional observations from a re-analysis of the deposited data

How the results depend on the processing

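With total counts 655 genes were called higher and 10937 lower, which is 4.23% and 70.7% of all genes tested. In that setting 2 plasma cell members fell (Xbp1 and Mzb1), and the related-gene lists gave 6 higher and 65 lower in place of 22 and 12. With DESeq2 size factors in edgeR 3 early B members were called lower. Leaving out single libraries gave 1 to 4 early B members, 1356 to 2142 genes lower and 5 to 11 related genes lower over all such fits run. The difference of medians, plasma cell minus early B, ran from 0.37 to 0.95 without single libraries. It was -0.022 with a filter of at least 1 CPM by total counts in 3 libraries, which kept Ebf1. Over the 6 members that reached 1 TMM-scaled CPM in at least 3 libraries, which left Ebf1 out, it was -0.093. The within-library ratio changed by 0.44 without Xbp1, in place of -0.63. These last 2 settings were chosen after seeing the data. Directions turned for 4 members that did not pass. Pax5 was 0.016 with DESeq2 size factors, 0.022 in DESeq2, 0.10 with the length and GC correction and -0.90 to 0.58 without single libraries. Irf4 was -0.85 with total counts, -0.13 with the block and -0.19 to 0.88 without single libraries. Prdm1 was -0.72 with total counts. Mzb1 was -1.13 with total counts, -0.013 without a filter, -0.36 with the length and GC correction and -0.12 to 0.094 without single libraries. Apart from the scaling, the correction and the left-out libraries, whose construction shows what changed, the cause was not tested. Of 127 alternatives of single members, 89 kept direction and side of the threshold, 22 lost the call and 16 turned.

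The labels name no pairing of libraries. Same-numbered libraries correlated at 0.041, -0.0051 and 0.0477 in their deviations from group means. Other pairs ran from -0.0755 to 0.0288. All are near 0, but deviations from means of 3 libraries cannot exclude a pairing. With the replicate number as a block, 2467 genes were called higher and 1906 lower, 4 early B members were called lower, and Ebf1 was -1.83 (edgeR adjusted p = 0.051). Counts under 50 per library limit Pax5, Irf4 and Prdm1, and also Ebf1 in every knockout library and in wild-type replicate 1.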
